A study of Mus musculus with 5 samples.

Results

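The barcodes described here are those richest in Glul, the gene of glutamine synthetase, within each of 5 libraries of isolated mouse hepatocytes. They were chosen by a measured value. Among barcodes with 300 or more panel UMIs (unique molecular identifiers, counted transcripts), those at or above the 95th percentile of their library for Glul UMIs as a share of all panel UMIs other than Alb were kept, and they are called members below. There were 1891 members among 37721 barcodes of that depth, out of 47473 deposited. The working name of the set is Glul-high hepatocytes nearest the central vein, and the zone markers went against that name for most members in 4 of the 5 libraries. The whole set is therefore called by its rule, the top 5% by Glul share.

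The livers came from male C57BL/6J mice, wild-type and fed normal chow. They were trained for 3 days with 16 h without food overnight and 8 h of feeding, and on the day itself their drinking water held 20% sucrose. Fed mice (0 h) were killed at clock hour 13 after 4 h of feeding, and the others 8, 16, 24 or 30 h after food and sucrose water were removed, at clock hours 21, 5, 13 and 19. Each time point was 1 library of total hepatocytes (10x 3' chemistry, then hybrid capture of 64 genes), and how many mice went into it is not given in the sources used here. Values listed in fives below run in that order, from 0 to 30 h. Without replicate libraries no test was made, so every interval below is a 95% interval of counting error alone, and hours of fasting, clock hour and library cannot be told apart, except that 0 h and 24 h shared the clock hour.

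Hepatocytes along the plate from the portal tract to the central vein divide metabolic work between them. Periportal cells carry more gluconeogenesis and urea synthesis, whereas pericentral cells carry more of the cytochrome P450 and bile acid enzymes. Glutamine synthetase is known for its restriction to a thin layer around the central vein, where it scavenges the ammonia that has passed the urea cycle, under Wnt and beta-catenin signals from the vein.

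There were 336 members among 6704 barcodes in the fed library, and 258 of 5159, 414 of 8260, 406 of 8064 and 477 of 9534 in the fasted ones. The depth filter kept 93.0%, 42.5%, 87.3%, 94.2% and 94.5% of each library's deposited barcodes, so the 8 h members came from the shallowest library. Members had a median of 905, 488, 537, 806.5 and 976 panel UMIs, against 1092, 550, 715, 1289 and 1193 in the remaining barcodes. Of 64 panel genes, 52 had 40 or more UMIs in the members of all libraries together, 50 of them other than Glul and Alb, and 3 genes had none. Across the libraries 150 barcode sequences occurred more than once among barcodes of sufficient depth, but 0 sequences were members in more than 1 library.

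Glul lies on chromosome 1 at 153899944 to 153909723 on the plus strand (GRCm38). The share at the 95th percentile was 1.61%, 1.88%, 0.909%, 1.43% and 1.23% of UMIs other than Alb. A member had a median of 6, 3, 2, 7 and 5 Glul UMIs in the same order. Members with only 1 or 2 Glul UMIs made up 6.55%, 30.2%, 61.1%, 15.5% and 14.9%. The rule thus admitted most of its 16 h members on 1 or 2 molecules.

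In the fed library the barcodes next to the boundary looked alike. The lowest fed member had a Glul share of 1.613% from 3 Glul UMIs, with 2 Cyp2e1 and 14 Cyp2f2 UMIs. The highest fed barcode left out had 1.609% from 6 Glul UMIs, with 1 Cyp2e1 and 39 Cyp2f2 UMIs. Both held more of the periportal than of the pericentral marker. The 16 h pair was alike too, with 1 Cyp2e1 UMI each and 19 and 16 Cyp2f2 UMIs. In the other libraries the barcode left out was the more pericentral. It held 24 Cyp2e1 and 0 Cyp2f2 UMIs at 8 h, against 1 and 7 in the member. At 24 h it held 177 and 5 against 27 and 16, and at 30 h 47 and 0 against 3 and 40.

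Far above the boundary the barcodes were different. The fed barcode with the highest share held 172 Glul, 107 Cyp2e1, 31 Gulo and 5 Cyp7a1 UMIs among 623, with 2 Cyp2f2 UMIs. The 16 h barcode with the highest share held 147 Glul, 81 Cyp2e1 and 23 Gulo UMIs among 542, with 0 Cyp2f2 UMIs. Shares rose slowly over most of the members' range and then steeply, to 36.3%, 30.8%, 39.8%, 31.6% and 26.7% at the maximum.

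**Figure D1:**
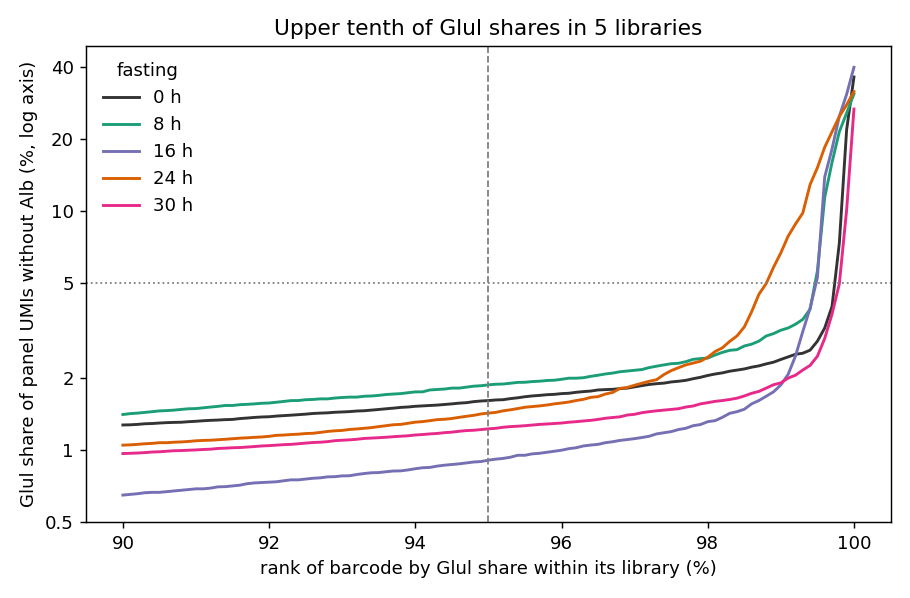
Glul share of panel UMIs other than Alb (percent, log axis) against the rank of a barcode by that share within its library (percent), 1 line per library, for ranks from 90% up; the dashed line is the 95th percentile and the dotted line a share of 5%. At the dashed line the libraries lie between 0.909% and 1.88%, and the steep part of the 24 h line begins at a lower rank than those of the other 4 lines.

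A share of 5% was taken, after the distribution had been seen, to set apart this steep end. It held 15, 29, 42, 97 and 19 barcodes, called high-share members below; they are a range of a score, not a type. Between shares of 3% and 10% lay 20, 41, 23, 75 and 28 barcodes. As a percentage of barcodes of sufficient depth the high-share members were 0.224% (interval 0.125 to 0.369), 0.562% (0.377 to 0.806), 0.509% (0.367 to 0.687), 1.20% (0.977 to 1.47) and 0.199% (0.120 to 0.311). The 24 h interval lay above the other 4, and no replicate library exists to say how such shares vary. With 100 or more panel UMIs in place of 300, they numbered 22, 176, 56, 107 and 23, and with 600 or more 11, 4, 8, 82 and 15, so the number at 8 h rests on the depth filter.

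High-share members were 4.46%, 11.2%, 10.1%, 23.9% and 3.98% of all members, yet they held 47.9%, 62.6%, 75.04%, 80.9% and 37.5% of the members' Glul UMIs. Their median was 120, 41, 56, 60 and 75 Glul UMIs. The other members had a median of 6, 3, 2, 5 and 5.

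Cyp2e1, a pericentral cytochrome P450 that oxidises ethanol and other small molecules, and Cyp2f2, a periportal cytochrome P450, checked the name of the set. More Cyp2e1 than Cyp2f2 UMIs were found in 24.7%, 44.2%, 39.6%, 77.8% and 37.3% of members. The same held for 15.7%, 32.0%, 23.4%, 44.0% and 29.3% of the remaining barcodes, so members were shifted towards the pericentral marker in every library without being mostly pericentral, except at 24 h. Among members under a share of 5% the percentages were 21.2%, 37.6%, 32.8%, 70.9% and 34.7%. High-share members passed in 15 of 15, 28 of 29, 42 of 42, 97 of 97 and 19 of 19 cases. On this measure nearly all high-share members were on the pericentral side, but it does not place them nearer the central vein than other Cyp2e1-rich barcodes, with which they are compared below.

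**Figure D2:**
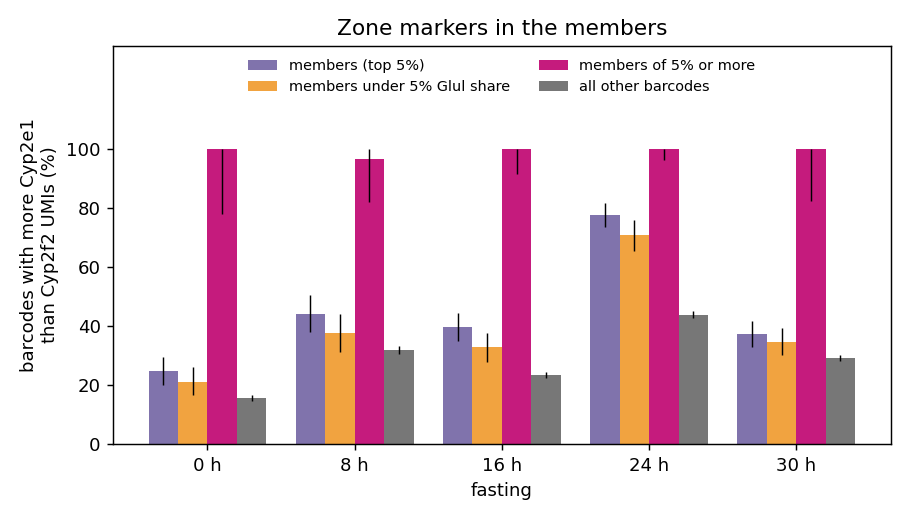
Percentage of barcodes with more Cyp2e1 than Cyp2f2 UMIs (vertical axis) by hours of fasting, for all members, members under and at or above a Glul share of 5%, and all other barcodes; bars are percentages and whiskers exact Clopper-Pearson intervals. All members stand at 24.7% to 77.8%, whereas the high-share members stand at 96.6% or 100%.

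Choosing members on a share and then describing them counts their sampling error as signal, so the choice was repeated on a random part of each barcode's UMIs and read in the rest. Of the members chosen on 1 part, 18.4%, 17.9%, 22.0%, 41.6% and 17.3% were also in the top 5% of the other part. Of barcodes with a share of 5% or more in the first part, 14 of 18, 23 of 37, 41 of 49, 87 of 102 and 17 of 26 kept it in the other. The first rate is by rank and includes the high-share barcodes, and the second is by a fixed share. Both read Glul again, and high-share members hold more Glul UMIs, so the rates are a description and do not compare repeatability.

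Panel genes known for other liver cells (Cdh5 of endothelium, Mrc1, Cd68 and Ptprc of immune cells, Pdgfra and Pdgfrb of mesenchyme) were rare. Together they made up 260, 293, 63.0, 76.0 and 166 per 1000000 UMIs other than Alb in members and 128, 196, 107, 125 and 68.9 in remaining barcodes. Members were higher at 0, 8 and 30 h and lower at 16 and 24 h, from 27, 12, 5, 11 and 26 UMIs in members. The intervals of members and remaining barcodes overlapped at 8, 16 and 24 h. High-share members held 0, 2, 0, 2 and 2 such UMIs, so that all 6 genes were at 0 at 0 h and at 16 h. The part of these genes in the results on all members was not tested.

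The members were next set against the remaining barcodes of their own library, in CPM without Alb (UMIs per 1000000 panel UMIs other than Alb). Gulo, Cyp2e1 and Cyp7a1 were higher in members in all 5 libraries, and most other genes differed little. Glul itself, on which the members were selected, was at 35937, 52174, 47155, 72814 and 24485 CPM in members against 5560, 4560, 1405, 4193 and 3678 in the remaining barcodes. Past 2-fold higher, Glul aside, were 1 of 48 genes (2.08%), 2 of 46 (4.35%), 3 of 47 (6.38%), 4 of 48 (8.33%) and 1 of 50 (2%). Past 2-fold lower were 2 genes at 24 h (4.17%) and 0% in the other 4 libraries. The median log2 ratio over all genes was -0.03, -0.15, -0.07, -0.27 and -0.05.

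Gulo, which encodes gulonolactone oxidase, the last enzyme of vitamin C synthesis in mice, was the only gene past 2-fold in every library. It stood at 7390, 11442, 14215, 18889 and 7001 CPM in members. In remaining barcodes it stood at 3212, 5432, 5128, 5218 and 2984. Each library's members were above its other barcodes, with log2 ratios of 1.20 (interval 1.09 to 1.31), 1.07 (0.93 to 1.21), 1.47 (1.38 to 1.56), 1.86 (1.80 to 1.92) and 1.23 (1.14 to 1.32). With members chosen on 1 part of the UMIs and Gulo read in the other, the log2 ratios were 1.25, 1.08, 1.37, 1.78 and 1.08.

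Cyp2e1 stood at 62258, 119261, 143847, 253472 and 145528 CPM in members and at 33610, 59190, 61187, 97003 and 106238 in the rest. The members were higher each time, by log2 ratios of 0.89, 1.01, 1.23, 1.39 and 0.45. At 30 h the ratio was the smallest of the 5, while the level in the remaining barcodes was the highest.

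Among enzymes of bile acid synthesis, Cyp7a1, the rate-limiting enzyme of the classic pathway, stood at 3584, 6626, 2432, 11400 and 3155 CPM in members against 2176, 3574, 727, 5459 and 2067. Its log2 ratio was largest at 16 h, at 1.74 (1.52 to 1.96), where its level in the other barcodes was lowest, and was 0.72, 0.89, 1.06 and 0.61 at the other times. Hsd3b7, the next enzyme to act on the sterol ring, had log2 ratios of 0.39, 0.13, 0.39, 0.67 and 0.09. Cyp39a1, a hydroxylase of the alternative route, had log2 ratios of -0.18, -0.49, -0.57, -0.71 and -0.08, the last of which was 0.04 with Alb kept in the denominator. The 4 panel genes listed for the classic pathway had a median log2 ratio between 0.04 at 30 h and 0.48 at 24 h.

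Elovl3, an elongase of very long fatty acids, had log2 ratios of 0.36, 0.15, 0.73, 1.49 and 0.24, the first from 33 UMIs in members with an interval of -0.19 to 0.87. Scd1, the stearoyl-CoA desaturase, had -0.23, -0.33, -0.40, -0.56 and -0.26. Hamp2, a hepcidin gene, had log2 ratios of -0.31, -0.33, -0.24, -0.52 and -0.14. Of 11 panel genes of fatty acid synthesis, 5, 9, 7, 9 and 6 had an interval below 0 and 1 in each library had an interval above it. Among all genes the interval lay below 0 for 15 (31.2%), 21 (45.7%), 18 (38.3%), 32 (66.7%) and 16 (32%), and above 0 for 10 (20.8%), 7 (15.2%), 8 (17%), 9 (18.8%) and 6 (12%). With Alb kept in the denominator the median over all genes moved up to 0.07, 0.01, 0.11, 0.33 and 0.08, and of the 11 genes 2, 2, 1, 1 and 1 lay below 0 and 2, 1, 3, 8 and 1 above it. Among all genes on that scale, 6 of 48, 4 of 46, 7 of 47, 6 of 48 and 4 of 50 lay below 0. Above it lay 19, 15, 19, 33 and 22. The direction of the 11 genes in members thus depends on the denominator, most of all at 24 h, as it does for the panel as a whole.

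The periportal genes Cyp2f2 and Hsd17b13 were lower in members, most of all at 24 h. Cyp2f2 stood at 57046, 42516, 42997, 18537 and 48746 CPM in members against 63775, 54082, 56704, 38122 and 54779. Its log2 ratio was -0.16, -0.35, -0.40, -1.04 and -0.17. Hsd17b13, a lipid droplet protein, reached -1.08 at 24 h and was between -0.38 and -0.15 at the other times. Cyp2f2 and Hsd17b13 were the 2 genes past 2-fold lower at 24 h, the library in which most members had more Cyp2e1 than Cyp2f2.

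Gluconeogenic genes differed less, again most at 24 h. Pck1 encodes phosphoenolpyruvate carboxykinase, the committed step from oxaloacetate. It had log2 ratios of -0.07, -0.20, -0.33, -0.59 and -0.05. G6pc, the catalytic subunit of glucose-6-phosphatase, had -0.13, -0.14, -0.21, -0.65 and -0.04. Sds, serine dehydratase, had -0.07, -0.27, -0.30, -0.79 and -0.07. With all panel UMIs, Alb included, in the denominator, the 24 h ratios of Pck1, Scd1 and Hamp2 were 0.01, 0.04 and 0.08, so their direction there rests on leaving out Alb. On that scale Pck1 also stood at 0.03 at 0 h and 0.07 at 30 h, Sds at 0.03 and 0.05, and G6pc at 0.02 at 8 h and 0.08 at 30 h, whereas Cyp2f2 and Hsd17b13 stayed lower in members in every library, with -0.44 and -0.48 at 24 h.

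**Figure D3:**
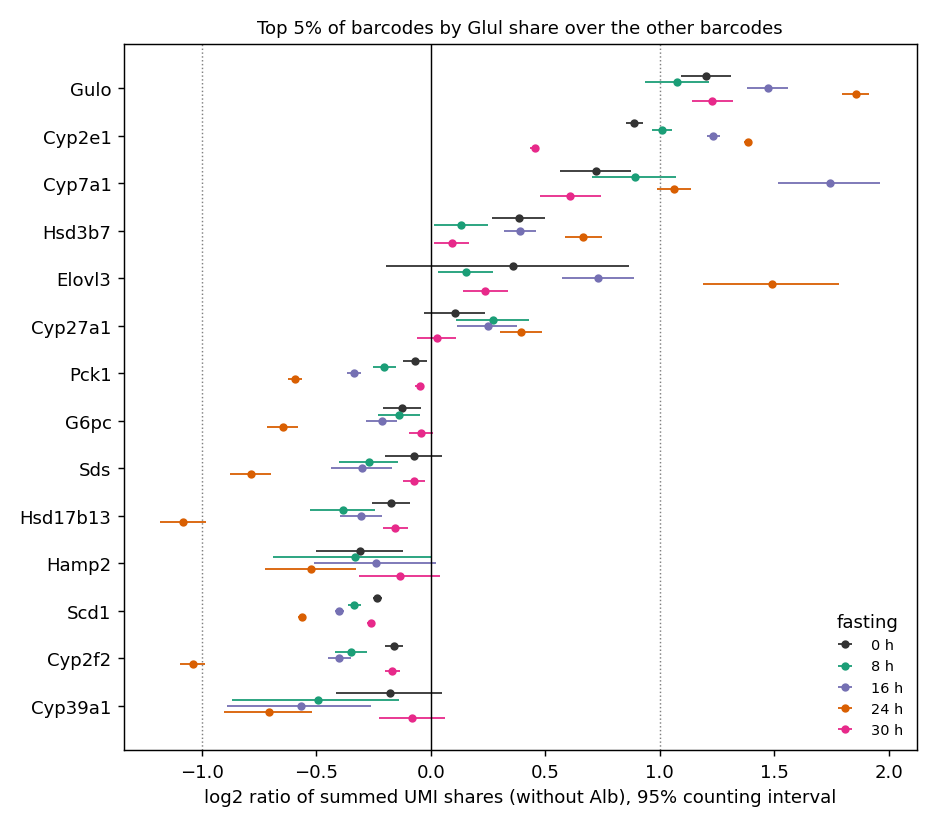
Log2 ratio of members over remaining barcodes of the same library (horizontal axis, CPM without Alb) for 14 genes (rows), 1 point per library with its exact conditional binomial interval; dotted lines mark 2-fold. Gulo lies beyond the upper dotted line in all 5 libraries, and the 24 h points of Cyp2f2 and Hsd17b13 lie beyond the lower one at -1.04 and -1.08.

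These ratios mix the high-share members with the rest of the members. Under a share of 5%, the log2 ratio over the remaining barcodes was 0.56, 0.57, 1.08, 1.47 and 0.89 for Gulo and 0.49, 0.60, 0.94, 1.18 and 0.27 for Cyp2e1. In shares that left out Glul as well as Alb, high-share members exceeded those other members by 3.47, 2.06, 1.98, 1.14 and 2.61 for Gulo. These values are on another scale than the ratios over the remaining barcodes and do not add to them. For Cyp2f2, in shares without Alb and Glul, the log2 ratios of high-share members over other members were -2.71, -2.67, -2.02, -1.20 and -2.66. At 24 h the 2 ranges were closest for both genes.

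The planned comparison of all members with the Cyp2e1-rich layer, the 15% of remaining barcodes of a library with the highest Cyp2e1 as a share of Cyp2e1 plus Cyp2f2, set the whole range of members beside barcodes chosen for low Cyp2f2. The Cyp2f2 ratios, fixed in direction by that choice, were 1.79, 3.77, 2.51, 1.77 and 3.38. Members also held more Hsd17b13, which did not, by 1.47, 1.22, 1.85, 0.96 and 2.36. Sds was higher by 1.38, 0.81, 1.37, 0.48 and 1.95.

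The high-share members were then set against the Cyp2e1-rich layer, which holds 957, 735, 1181, 1150 and 1359 barcodes. Both groups are rich in Cyp2e1, but they were not matched on Cyp2e1 or Cyp2f2, and the part of that gap in the ratios below was not tested. Gulo was higher and Igfbp2 lower in high-share members by over 2-fold in all 5 libraries, Scd1 was lower in all 5, and Pck1 and G6pc were close to the layer. Values are UMIs per 1000000 panel UMIs other than Alb and Glul (CPM without both), since Glul took 23.6%, 18.9%, 23.2%, 16.7% and 14.7% of their UMIs other than Alb. Alb, the gene of serum albumin, took 35.3%, 47.9%, 40.9%, 42.8% and 37.3% of their panel UMIs, and 52.1%, 60.1%, 50.1%, 54.6% and 47.8% in the layer.

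Without Glul and the 2 genes that chose the layer, 2 of 44 genes were past 2-fold higher in the fed library (4.55%), then 1 of 43 (2.33%), 2 of 44 (4.55%), 2 of 45 (4.44%) and 2 of 46 (4.35%). In the same order 3 (6.82%), 4 (9.3%), 3 (6.82%), 1 (2.22%) and 3 genes (6.52%) were past 2-fold lower. Some of these genes were counted on few UMIs in high-share members, and their intervals included 0. They were Igfbp1 at 0 h (1 UMI), Pklr at 16 h (7 UMIs) and Acaca at 30 h (1 UMI) among the lower. Among the higher it was Usf1 at 30 h (4 UMIs). Over all genes counted, the middle log2 ratio lay between -0.08 and 0.11.

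Gulo stood at 53667, 34224, 43142, 32503 and 34296 CPM without both in high-share members. The layer stood at 13673, 13024, 15606, 13377 and 10234. Every library's high-share members were above every library's layer. The log2 ratios were 1.97 (1.80 to 2.14), 1.39 (1.17 to 1.61), 1.47 (1.32 to 1.61), 1.28 (1.20 to 1.36) and 1.75 (1.57 to 1.92). The same counts are given per barcode as a description. At 0 h the 15 high-share members held 8 to 33 Gulo UMIs with a median of 25, and the layer had a median of 4. At 24 h the 97 held 2 to 40 with a median of 14, against 5 in the layer, so the lowest lay under the layer's median.

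Cyp2e1 and Cyp2f2 chose the layer, and their levels are given as a description. Cyp2e1 was at 332010, 320587, 377730, 379930 and 470277 CPM without both in high-share members and at 162094, 171362, 225550, 283255 and 369026 in the layer. The high-share members were above the layer in each library, by log2 ratios of 1.03, 0.90, 0.74, 0.42 and 0.35. The high-share members also held more Cyp2f2 in 4 of the 5 libraries, with log2 ratios of -0.80, 1.36, 0.70, 0.95 and 0.82, from 55, 46, 114, 450 and 69 UMIs. With a layer of 25% the 16 and 30 h ratios of Cyp2f2 were -0.60 and -0.79, and with one of 10% the 0 h ratio was 0.32. The 0 h ratio was also 0.60 with high-share members from a share of 3%. It was 0.03 when barcodes were chosen on 1 part of their UMIs and read in the other. With 600 or more UMIs the 16 h ratio was -0.32. The sign thus depends on how strictly the layer was cut and on which barcodes are taken. Hsd17b13, which did not choose the layer, had -0.78, -0.65, -0.09, 0.13 and 0.05, and only at 0 h did its interval exclude 0.

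Of the bile acid genes, Cyp7a1 was at 16566, 15017, 6132, 15629 and 9507 CPM without both against 8927, 9544, 2576, 12917 and 6414 in the layer. The log2 ratios were 0.89 (0.58 to 1.19), 0.65 (0.32 to 0.97), 1.25 (0.84 to 1.64), 0.28 (0.16 to 0.39) and 0.57 (0.23 to 0.89). Both groups were lowest at 16 h, with 57 UMIs in high-share members. Hsd3b7 was higher too, by 0.91, 0.49, 0.40, 0.63 and 0.48.

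Cyp27a1 and Cyp7b1, which begin and continue the alternative pathway, differed less. Cyp27a1, the sterol 27-hydroxylase, had log2 ratios of 0.41, 0.65, 0.22, 0.35 and 0.12, and at 16 and 30 h its intervals included 0. Cyp7b1, the oxysterol 7-alpha-hydroxylase, had 0.36, 0.61, 0.41, 0.35 and 0.31, with intervals that included 0 at 0 and 30 h. Cyp8b1, the sterol 12-alpha-hydroxylase of the classic pathway, had -0.05, -0.26, -0.01, 0.12 and -0.28, so that the 4 classic pathway genes did not move together.

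Igfbp2 encodes a binding protein of insulin-like growth factors. It was at 2761, 2968, 6025, 12009 and 3971 CPM without both in high-share members, from 16, 17, 56, 511 and 33 UMIs. In the layer it was at 15303, 14036, 19799, 25998 and 26701. The 5 values in high-share members all lay under the lowest in the layer, with log2 ratios of -2.47 (-3.28 to -1.77), -2.24 (-3.02 to -1.56), -1.72 (-2.12 to -1.34), -1.11 (-1.25 to -0.99) and -2.75 (-3.29 to -2.26). In single barcodes the median was 0, 0, 1, 4 and 1 Igfbp2 UMIs, against 5, 2, 5, 9 and 11. Igf1, the growth factor itself, had log2 ratios of -0.54, -0.53, -0.30, -0.33 and -0.50, of which that at 8 h was 0.04 when barcodes were chosen on 1 part of their UMIs and read in the other.

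Igfbp1, another binding protein and one known to rise when insulin falls, behaved otherwise. It was at 39113 CPM without both at 8 h against 22732 in the layer, a log2 ratio of 0.78 (0.58 to 0.98), and at 30 h at 13598 against 8420, a log2 ratio of 0.69 (0.41 to 0.96). At 16 and 24 h the intervals included 0. At 0 h the high-share members held 1 Igfbp1 UMI, a log2 ratio of -2.31 with an interval of -7.62 to 0.17.

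Scd1 was at 95082, 134276, 129102, 184371 and 57160 CPM without both in high-share members. The layer stood at 255278, 306572, 294270, 308004 and 162759. The log2 ratios were -1.43, -1.19, -1.19, -0.74 and -1.51, past 2-fold in every library but 24 h. A high-share member held a median of 35, 26, 25.5, 76 and 17 Scd1 UMIs, and a barcode of the layer 82, 50, 71, 122 and 66. Elovl6, the elongase of palmitate, had -0.84, -0.83, -0.21, -0.78 and -0.47, the last from 2 UMIs in high-share members, and at 16 h it was 0.52 when chosen on 1 part and read in the other.

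Elovl3 went the other way from Scd1 and Elovl6, with log2 ratios of 1.49, 0.17, 0.71, 1.19 and 0.63. The first rests on 10 UMIs, with an interval of 0.41 to 2.40, and was -0.13 when the barcodes were chosen on 1 part of their UMIs and read in the other. At 8 h the interval was -0.11 to 0.45. Of 11 listed genes of fatty acid synthesis, 5, 4, 4, 5 and 2 had an interval below 0 and 2, 0, 1, 1 and 2 above it. Among all genes counted, 11 (25%), 7 (16.3%), 7 (15.9%), 9 (20%) and 6 (13%) lay below 0, and 8 (18.2%), 9 (20.9%), 6 (13.6%), 14 (31.1%) and 9 (19.6%) above it.

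Pck1 was at 15186, 59019, 52824, 57861 and 85078 CPM without both in high-share members against 14268, 65031, 70781, 56207 and 108715 in the layer. Its log2 ratios were 0.09 (-0.23 to 0.39), -0.14 (-0.30 to 0.02), -0.42 (-0.55 to -0.29), 0.04 (-0.02 to 0.10) and -0.35 (-0.46 to -0.25). Only at 16 and 30 h did the interval exclude 0, with high-share members below the layer. G6pc had -0.29, -0.11, -0.03, -0.11 and -0.05, with intervals that all included 0. Sds was higher at 30 h, by 0.68 (0.34 to 0.99), from 82 UMIs.

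**Figure D4:**
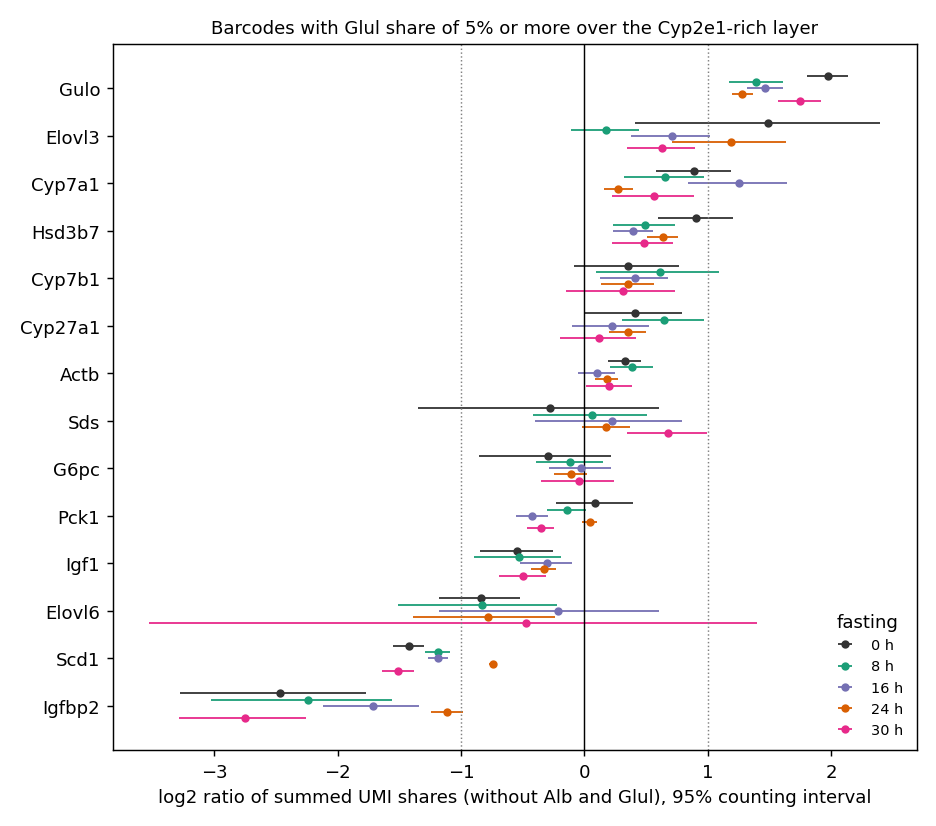
Log2 ratio of high-share members over the Cyp2e1-rich layer of the same library (horizontal axis, UMI shares without Alb and Glul) for 14 genes (rows), 1 point per library with its exact conditional binomial interval; dotted lines mark 2-fold. All 5 points of Gulo lie to the right of the upper dotted line and all 5 of Igfbp2 to the left of the lower one, while those of G6pc lie around 0.

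Over time, Pck1 was higher and Fasn, Elovl6 and Acly were lower in the members of each fasted library than in those of the fed one, as in the remaining barcodes. Both groups at 0 h are the base of the changes in each, and members were chosen anew in every library. Past 2-fold higher than in the 0 h members were 8 of 46 genes at 8 h (17.4%), then 6 of 47 (12.8%), 6 of 48 (12.5%) and 8 of 49 (16.3%). Past 2-fold lower were 6 (13%), 11 (23.4%), 14 (29.2%) and 13 (26.5%). The median over all genes was -0.12, -0.08, -0.08 and -0.08 on the log2 scale.

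Pck1 in members stood at 27526 CPM at 0 h and at 80387, 102413, 66272 and 169252 in the 4 fasted libraries. The log2 changes were 1.55, 1.90, 1.27 and 2.62, beside 1.68, 2.16, 1.79 and 2.60 in remaining barcodes. At 30 h the changes differed by 0.02 (-0.04 to 0.08), and at 24 h by -0.53 (-0.59 to -0.46). At 24 h the members were the most pericentral of the 5 sets, and periportal genes fell behind there: Sds changed by 0.38 against 1.09, G6pc by 0.10 against 0.62, Hsd17b13 by -1.11 against -0.20 and Cyp2f2 by -1.62 against -0.74. The part of this shift in zone markers in the change of Pck1 was not tested.

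Igfbp1 in members went from 59 UMIs at 0 h (568 CPM) to 24058, 4096, 12733 and 8966 CPM, log2 changes of 5.40, 2.85, 4.49 and 3.98. Elovl3 went from 33 UMIs (318 CPM) to 14547, 4511, 760 and 5593 CPM, log2 changes of 5.52, 3.83, 1.26 and 4.14. Both were lowest in the fed library, and Elovl3 was next lowest at 24 h, which shares the clock hour with it. The remaining barcodes had Elovl3 changes of 5.72, 3.46, 0.12 and 4.26.

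Among lipogenic genes, Fasn, fatty acid synthase, went from 84620 CPM to 12004, 5834, 2549 and 2931, log2 changes of -2.82, -3.86, -5.05 and -4.85. Elovl6 changed by -2.16, -3.46, -4.49 and -4.78. Acly, ATP citrate lyase, which supplies cytosolic acetyl-CoA, changed by -1.78, -3.05, -3.87 and -4.13.

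Srebf1, the transcription factor that drives these genes under insulin, was at its lowest at 8 h, with 18 UMIs in members and a log2 change of -5.01 (-5.77 to -4.34), and changed by -2.96, -4.05 and -4.30 later. As a share of UMIs Scd1 did not fall with the others before 30 h: 216043 CPM at 0 h was followed by 241749, 248000, 241429 and 162916. In UMIs per barcode it fell by 0.80 at 8 h and by 0.49 at 16 h on the log2 scale.

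Pericentral genes changed in members as well. Cyp2e1 changed by 0.94, 1.21, 2.02 and 1.23 on the log2 scale, beside 0.82, 0.86, 1.53 and 1.66 in remaining barcodes. Cyp7a1 changed by 0.89, -0.56, 1.67 and -0.18, beside 0.72, -1.58, 1.33 and -0.07. Gulo changed by 0.63, 0.94, 1.35 and -0.08. In UMIs per barcode, which at 8 h come from the shallowest library, the 8 h changes of Cyp2e1, Cyp7a1 and Gulo were -0.02, -0.08 and -0.33. Among members with more Cyp2e1 than Cyp2f2 at each time, the Gulo changes at 8 and 24 h were -0.31 and -0.09, and with 600 or more UMIs the 16 h change was -0.24, so the rise of Gulo in members depends on which barcodes are taken. With the Glul share at the 0 h cut applied to every library, which left 398, 110, 308 and 177 fasted members, the Cyp7a1 change at 16 h was 0.45 in place of -0.56, so its direction in members depends on how many barcodes are taken.

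Within the high-share members, Pck1 and G6pc rose and Fasn and Acly fell as they did in the layer, while Cyp2e1 changed less and Gulo fell. Past 2-fold higher than the 0 h high-share members were 6 of 37 genes at 8 h (16.2%), then 7 of 39 (17.9%), 5 of 46 (10.9%) and 6 of 37 (16.2%). Past 2-fold lower were 4 (10.8%), 7 (17.9%), 11 (23.9%) and 9 (24.3%). The medians over these genes were -0.14, 0.17, -0.06 and -0.29. The base is 15 barcodes with 5795 UMIs other than Alb and Glul.

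Pck1 rose by log2 changes of 1.96 (1.62 to 2.31), 1.80 (1.47 to 2.14), 1.93 (1.62 to 2.25) and 2.49 (2.17 to 2.82), from 88 UMIs at 0 h. The layer changed by 2.19, 2.31, 1.98 and 2.93. The difference between the 2 changes was -0.51 (-0.84 to -0.18) at 16 h and -0.44 (-0.77 to -0.12) at 30 h, and its interval included 0 at 8 and 24 h. G6pc rose by 1.92, 1.46, 1.09 and 1.11, from 31 UMIs, beside 1.74, 1.20, 0.91 and 0.86. Sds, from 10 UMIs, changed by 2.09, 0.70, 1.74 and 2.52, and its 16 h interval included 0. In UMIs per barcode the 16 h change of Sds was -0.11.

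Cyp2e1 in high-share members changed by -0.05 (-0.14 to 0.04), 0.19 (0.11 to 0.27), 0.19 (0.13 to 0.26) and 0.50 (0.42 to 0.58), whereas the layer, which Cyp2e1 chose in each library, changed by 0.08, 0.48, 0.81 and 1.19. Gulo fell by 0.65, 0.32, 0.72 and 0.65 on the log2 scale in high-share members. In the layer its changes were -0.07, 0.19, -0.03 and -0.42. The difference between the 2 changes excluded 0 at 8, 16 and 24 h, and at 30 h it was -0.23 (-0.47 to 0.01). With high-share members taken from a share of 3%, the Gulo change at 16 h was 0.07, so the fall at that time rests on where the range begins.

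Fasn fell by 2.53, 4.06, 4.61 and 4.26 and Acly by 1.35, 2.73, 3.04 and 4.12. Gpam, the first acyltransferase of triglyceride synthesis, fell by 0.52, 0.99, 1.21 and 1.84, less than in the layer, where it fell by 1.65, 1.47, 1.89 and 2.36. At 8 h these changes of Gpam differed by 1.13 (0.68 to 1.58). Scd1 changed by 0.50, 0.44, 0.96 and -0.73, beside 0.26, 0.21, 0.27 and -0.65. In UMIs per barcode the Scd1 changes at 8 and 16 h were -0.47 and -0.36, and that of Cyp2e1 at 16 h was -0.62.

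Igfbp2 in high-share members changed by 0.10 (-0.97 to 1.19), 1.13 (0.30 to 2.03), 2.12 (1.41 to 2.94) and 0.52 (-0.38 to 1.49). At 24 h the change exceeded that of the layer by 1.36 (0.64 to 2.08). High-share members were also most numerous at 24 h, and there they stood closest to the layer for Igfbp2, Scd1, Gulo and Cyp7a1. The part of the wider range of barcodes at 24 h in these smaller ratios was not tested.

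Cyp7a1 fell at 16 h, by 1.43 on the log2 scale (interval -1.93 to -0.95), and the layer fell by 1.79. Its changes at the other times were -0.14, -0.08 and -0.80. Hsd3b7 changed by 0.59, 1.05, -0.31 and 0.04, beside 1.01, 1.57, -0.04 and 0.47 in the layer, and its 8 h change in UMIs per barcode was -0.38. Cyp7a1 and Hsd3b7 thus moved in opposite directions at 16 h in high-share members and in the layer alike.

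**Figure D5:**
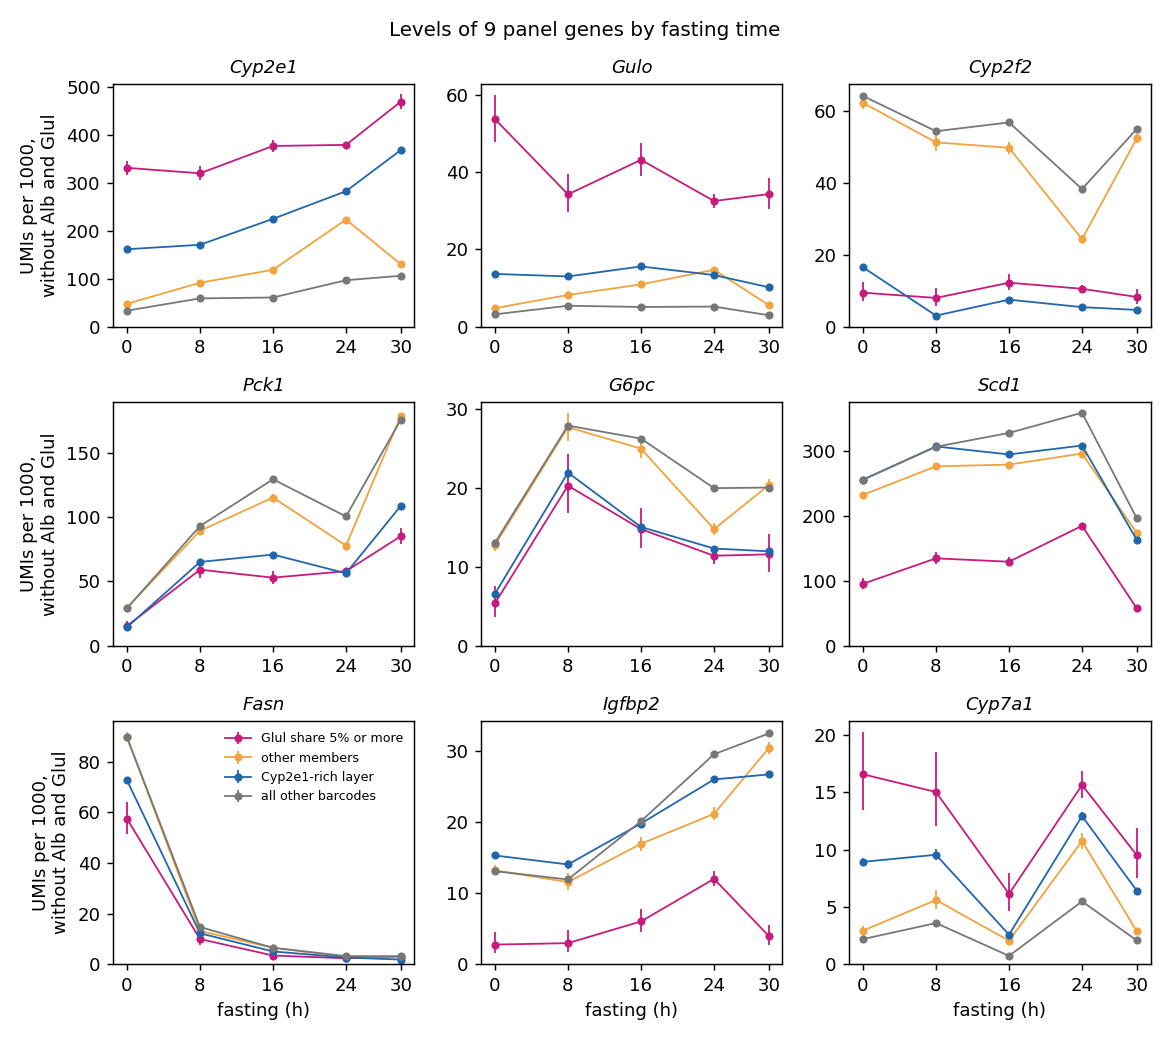
UMIs per 1000 panel UMIs other than Alb and Glul (vertical axis, from 0) against hours of fasting for 9 genes, in high-share members, other members, the Cyp2e1-rich layer and all other barcodes; points are 1 library each, whiskers exact Poisson intervals, and lines join libraries of different mice. High-share members are highest for Gulo and lowest for Igfbp2 and Scd1 at every time, and their G6pc points lie beside those of the layer.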

How the data were processed

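The authors deposited 1 matrix of raw UMI counts (64 genes by 47473 barcodes) made with Cell Ranger 6.0.1 on mm10, per the submitters' processing notes, and a barcode table naming each library, from which groups were taken; the calling of barcodes as cells is not given in the sources used here. Members and gene lists were chosen with earlier results of these data known. Counts were summed per library and group with Python 3.11.15, NumPy 2.4.6, pandas 2.3.3 and SciPy 1.17.1. Levels had exact Poisson intervals, ratios exact conditional binomial intervals, shares Clopper-Pearson intervals and differences of changes normal intervals, all at 95%. Reads of one molecule were already merged as UMIs, and intervals cover counting error only. Genes were counted past 2-fold with at least 400 UMIs in both groups together against remaining barcodes, 100 against the layer and 40 over time. Zones were rebuilt from 2 markers, and other definitions of a zone may give other values. No doublet caller was run on 64 genes; the deepest 5% were left out as an alternative. Named genes were listed panel genes with 40 or more UMIs in members, in full the 5 largest and 5 smallest median ratios to remaining barcodes, 3 of each to the layer and the 3 largest rises and falls at each time; 1 gene so named is not reported here. The high-share range, its comparisons and its alternatives were added after the data were seen. Positions came from GENCODE M21. The steps were tested on simulated data: against remaining barcodes 65 of 65 genes changed 4-fold and 0 of 173 unchanged genes passed 2-fold, and for high-share members against the layer 65 of 68 and 5 of 164. The intervals held the true value for 95.4% and 93.5% of genes, and at 30 h for 87.5% in both comparisons. Summed counts were drawn for groups already chosen. The choice by Glul share, the spread between barcodes and the effect of 1 gene on the shares of others were thus not simulated. Other deposited columns are barcode and gene names, which carry no measurement.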

Additional observations from a re-analysis of the deposited data

Results flagged for a closer look

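In 4 cases a gene changed in opposite directions against 0 h in 2 groups with both intervals excluding 0, and none of these differences was tested. The genes looked at numbered 46, 47, 48 and 49 in members at 8, 16, 24 and 30 h. In high-share members they were at most 37, 39, 46 and 37, since Cyp2e1 and Cyp2f2 were left out. Fads1, a fatty acid desaturase, changed by -0.14 on the log2 scale at 24 h in members and by 0.27 in remaining barcodes, a difference of -0.41 (-0.53 to -0.29). In high-share members it changed by -0.49 at that time and in the Cyp2e1-rich layer by 0.07, a difference of -0.56 (-0.94 to -0.18). Fads2, another desaturase, changed by -0.13 at 30 h in members and by 0.05 in remaining barcodes, a difference of -0.19 (-0.29 to -0.09). Gulo changed by -0.32 at 16 h in high-share members and by 0.19 in the layer, a difference of -0.51 (-0.73 to -0.28). With high-share members taken from a share of 3%, their Gulo change at 16 h was 0.07.

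Barcodes with at least 100 but under 300 panel UMIs, which took no part in the comparisons, also held a Glul-rich end. A Glul share of 5% or more from at least 5 Glul UMIs was found in 6 of 504 at 0 h (1.19%), 39 of 5355 at 8 h (0.728%), 12 of 1199 at 16 h (1.001%) and 9 of 494 at 24 h (1.82%). More Cyp2e1 than Cyp2f2 UMIs were found in 5, 35, 11 and 9 of them. At 30 h it was 3 of 560.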

How the results depend on the processing

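No paired analysis was possible because each time point was 1 library. Members and remaining barcodes were compared on 48, 46, 47, 48 and 50 genes in the 5 libraries, and such numbers can differ between settings. Over the 5 libraries, 11 gene and library pairs were past 2-fold higher and 2 lower in members than in remaining barcodes. These became 4 and 0 with the 90th percentile, 7 and 0 with 600 or more UMIs and with the mean of per-barcode shares, 19 and 32 among members with more Cyp2e1 than Cyp2f2, and 17 and 13 at 1.5-fold. The lower pairs became 15 with the 98th percentile, 11 with the fixed 0 h share, 1 when chosen on part of the UMIs and 4 with a UMI minimum 4 times lower. They became 0 with remaining barcodes weighted by depth, and 0 with each of 3 denominators (without Alb and Glul, without Scd1 and Cyp2e1 too, or with all panel UMIs). High-share members were compared with the layer on 44, 43, 44, 45 and 46 genes. The 9 higher and 14 lower pairs there became 15 and 23 with 600 or more UMIs and 25 and 28 at 1.5-fold. The lower ones became 23 with Glul kept in the denominator. With 600 or more UMIs only 4 high-share members were left at 8 h and 8 at 16 h. Against 0 h, on 46, 47, 48 and 49 genes, members had 28 and 44 pairs. At 1.5-fold 45 were higher, and in UMIs per barcode 68 were lower. High-share members had 24 and 31 pairs, on 37, 39, 46 and 37 genes. These pairs became 12 and 14 with 4 times the UMI minimum. The lower ones became 52 in UMIs per barcode and 54 at 1.5-fold. The cause was not tested, beyond the looser fold and the fewer genes or barcodes that these settings take by construction. Elovl3 at 0 h in high-share members over the layer reversed, to -0.13, when chosen on part of the UMIs. Gulo at 24 h in members over 0 h reversed, to -0.094, among members with more Cyp2e1 than Cyp2f2. Of 4576 alternative values of 289 named values, 3205 moved by less than a margin of counting error and 1369 by more. The margin came only from the UMIs of the member group in its own library. It left out the comparison group and the 0 h base, so it is narrower than the printed intervals where these hold few UMIs. The 2 values just named, of Elovl3 and Gulo, turned from past 2-fold to the other sign. In all, 156 alternative values of 84 named values had the other sign, 21 of them in UMIs per barcode, and only some of these are given with the results. Gulo stayed higher, and Igfbp2 and Scd1 lower, in high-share members than in the layer in all 19 settings of each library. Not all of these settings could alter that comparison. The denominator without Alb and Glul is its main one, and the 90th and 98th percentiles left the number of high-share members unchanged.

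The main limits are 15 to 97 high-share barcodes per library, 1 library per time point, a 64-gene panel in which a rise of 1 gene lowers the share of others, and a Glul cut that lets in barcodes with 1 or 2 Glul UMIs. At 8 h the depth filter removed most barcodes.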
